A study of Mus musculus with 2 samples.

Results

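Isl1 binding was examined at 40 genes of axon and vessel guidance, namely 20 semaphorins, 9 plexins, 2 neuropilins, 3 Slits, 3 Robo receptors, Ntn1 and the netrin receptors Unc5b and Unc5c. Each gene was followed through the deposited list of Isl1 peaks, and a peak belonged to a gene where the list gave that gene's symbol as the closest transcription start site (TSS). Of the 48295 peaks in the list, 194 belonged to these genes, and 29 of the 40 genes had at least 1. The peaks came from chromatin immunoprecipitation followed by sequencing (ChIP-Seq) on the cardiogenic mesoderm and heart region of C57BL/6 embryos staged between E8.25 and E9. Tissue of roughly 60 to 80 embryos was pooled and Isl1, a LIM-homeodomain factor of second heart field progenitors, was precipitated with a monoclonal antibody from the Developmental Studies Hybridoma Bank. The list was deposited for 1 ChIP sample with no values by replicate, and no use was made of the input. Neither a height nor a p-value is listed for a peak and the read depth is unknown, so each peak counted the same and no test between groups was possible. Intervals given below are 95% intervals for counting error alone.

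Semaphorins signal through plexins, and most secreted class 3 semaphorins need a neuropilin as co-receptor, whereas Sema3e binds Plxnd1 directly. Slits bind Robo receptors, and netrins repel cells through Unc5 receptors. In the developing heart these cues are known for steering cardiac neural crest cells into the outflow tract and for patterning the great vessels.

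Most peaks of these genes lay on an uninterrupted stretch of purines (A and G) or pyrimidines (C and T). The sequences under some of the peaks closest to a TSS show what such a stretch looks like. Each is printed from the mm9 genome 5′ to 3′ on the strand of its gene, and capitals mark the longest run of 1 base class within 100 bp of the peak midpoint. At most 140 bases are shown, so that a line wholly in capitals is part of a longer run, and the Robo2 run also goes on beyond the first base shown.
Sema3a (chr5:13397123-13397261, plus strand): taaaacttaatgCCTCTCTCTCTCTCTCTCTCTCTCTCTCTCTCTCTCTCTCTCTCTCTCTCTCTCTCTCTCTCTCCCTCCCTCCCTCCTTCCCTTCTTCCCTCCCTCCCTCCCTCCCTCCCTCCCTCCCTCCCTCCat
Sema3f (chr9:107604455-107604542, minus strand): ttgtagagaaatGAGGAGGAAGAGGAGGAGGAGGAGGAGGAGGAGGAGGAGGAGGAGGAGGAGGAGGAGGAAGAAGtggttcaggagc
Sema3g (chr14:32031751-32031825, plus strand): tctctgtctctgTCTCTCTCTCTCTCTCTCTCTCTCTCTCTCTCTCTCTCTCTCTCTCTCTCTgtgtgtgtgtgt
Sema4a (chr3:88266487-88266626, minus strand): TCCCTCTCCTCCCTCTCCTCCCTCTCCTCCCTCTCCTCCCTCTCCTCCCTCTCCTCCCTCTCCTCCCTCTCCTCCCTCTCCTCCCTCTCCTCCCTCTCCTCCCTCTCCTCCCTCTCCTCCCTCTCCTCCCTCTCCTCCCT
Sema4f (chr6:82886816-82886908, minus strand): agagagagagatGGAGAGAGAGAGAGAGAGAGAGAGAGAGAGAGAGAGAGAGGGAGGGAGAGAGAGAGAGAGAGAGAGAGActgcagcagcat
Sema5b (chr16:35543395-35543466, plus strand): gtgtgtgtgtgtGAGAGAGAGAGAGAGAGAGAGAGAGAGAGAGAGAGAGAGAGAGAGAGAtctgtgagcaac
Nrp2 (chr1:62757826-62757965, plus strand): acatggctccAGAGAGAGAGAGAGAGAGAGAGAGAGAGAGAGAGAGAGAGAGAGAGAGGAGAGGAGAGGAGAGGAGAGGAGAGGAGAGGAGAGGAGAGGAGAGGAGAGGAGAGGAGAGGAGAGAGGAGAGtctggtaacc
Robo1 (chr16:72671989-72672128, plus strand): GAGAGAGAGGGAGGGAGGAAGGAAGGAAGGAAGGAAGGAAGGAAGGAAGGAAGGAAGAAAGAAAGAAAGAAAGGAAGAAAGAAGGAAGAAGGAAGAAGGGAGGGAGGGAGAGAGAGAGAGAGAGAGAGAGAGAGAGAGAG
Robo2 (chr16:74415374-74415470, minus strand): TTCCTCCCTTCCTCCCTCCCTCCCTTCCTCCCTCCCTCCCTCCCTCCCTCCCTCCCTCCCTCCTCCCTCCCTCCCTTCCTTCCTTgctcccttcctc
Robo4 (chr9:37209878-37209956, plus strand): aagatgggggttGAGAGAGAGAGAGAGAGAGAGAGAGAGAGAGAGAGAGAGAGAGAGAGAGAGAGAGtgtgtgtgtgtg
Unc5b (chr10:60300536-60300643, minus strand): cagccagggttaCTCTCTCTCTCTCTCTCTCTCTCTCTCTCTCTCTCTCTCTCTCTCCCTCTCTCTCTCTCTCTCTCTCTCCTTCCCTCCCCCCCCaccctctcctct
The repeat unit differed between these 11 peaks. Repeats of CT or GA lay at Sema3a, Sema3g, Sema4f, Sema5b, Nrp2, Robo4 and Unc5b, with 31 units in a row at Sema3a and 27 at Robo4. At Sema3a the repeat went over into CCCT blocks and at Nrp2 into AGAGG blocks. The Sema3f peak held GGA units, and the Sema4a peak repeated the bases TCCCTCTCC. Robo1 and Robo2 both carried blocks of 4 bases, GGAA on the strand of Robo1, and TCCC and TTCC on the strand of Robo2. The run reached 545 bases in the Sema4a peak, the longest under any peak of these genes.

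Peaks at Plxna1 and Plxnd1 were of another kind. Their midpoints lay 130 and 106 bp downstream of the TSS in the first exon and held no run, and the longest stretch of 1 base class in them was 8 and 10 bases. The part of the Plxnd1 peak upstream of the TSS is shown with its CG pairs in capitals.
Plxnd1 (chr6:115945024-115945122, minus strand): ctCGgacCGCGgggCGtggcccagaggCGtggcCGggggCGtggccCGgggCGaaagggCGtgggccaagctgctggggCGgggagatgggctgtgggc
There were 11 CG pairs in the 99 bases shown. G and C made up 80.5% of the 200 bp around the Plxna1 midpoint and 85.5% around that of Plxnd1. In the whole list 616 peaks within 1 kb of a TSS had no run near the midpoint, and their median share of G and C was 82.5%. Both peaks were close to that value.

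Further from a TSS, sequences are shown for the distal peaks without a run anywhere in them, at Sema3d, Sema3a, Sema6d and Plxnc1. Capitals mark TAAT or ATTA, the core bound by many homeodomain proteins.
Sema3d (chr5:12481352-12481471, plus strand): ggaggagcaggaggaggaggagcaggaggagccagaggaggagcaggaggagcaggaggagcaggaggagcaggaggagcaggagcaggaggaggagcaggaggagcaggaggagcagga
Sema3a (chr5:12928816-12928935, plus strand): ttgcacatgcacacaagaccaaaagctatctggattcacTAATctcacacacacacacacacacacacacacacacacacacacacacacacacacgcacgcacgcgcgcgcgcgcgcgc
Sema6d (chr2:124630039-124630158, plus strand): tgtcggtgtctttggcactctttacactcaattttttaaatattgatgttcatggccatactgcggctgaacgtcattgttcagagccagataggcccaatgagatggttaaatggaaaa
Plxnc1 (chr10:94334872-94334991, minus strand): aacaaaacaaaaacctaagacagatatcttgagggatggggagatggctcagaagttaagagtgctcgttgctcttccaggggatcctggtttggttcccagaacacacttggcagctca
The Sema3d stretch was again a purine repeat, broken by a C every few bases, and its longest run of 23 bases fell just short of the 25 required. The Sema3a stretch was a CA repeat that went over into CG pairs and held the only TAAT in the bases shown. In the wider window of 200 bp the Sema6d peak held TAAT or ATTA too. No simple repeat was seen in the Sema6d and Plxnc1 stretches.

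At least 1 peak was assigned to 29 of the 40 genes (72.5%, Wilson interval 57.2 to 83.9%), against 52.5% of the 20290 protein-coding genes compared. Within 10 kb of its TSS, 16 of the 40 genes had a peak (interval 26.3 to 55.4%), against 26.0% of all genes. At least 5 peaks were found at 13 genes (32.5%), against 10.9%. None of these shares was matched for gene length. All 6 Slit and Robo genes and all 3 netrin pathway genes had a peak, as did 6 of 7 class 3 semaphorins. Median gene lengths in these classes were 353.0, 191.5 and 156.0 kb. Among all genes, 84.2% of those from 100 to 200 kb and 93.2% of those from 200 to 400 kb had a peak. Of the class 4 to 7 semaphorins, which are membrane-bound, 7 of 13 had a peak, and of the plexins and neuropilins 7 of 11. Grouped by role, 17 of 24 ligands and 12 of 16 receptors had a peak, and the intervals of the shares overlapped widely (50.8 to 85.1% and 50.5 to 89.8%). The classes held very different numbers of peaks, 76 at Slit and Robo genes, 40 at class 4 to 7 semaphorins, 38 at class 3 semaphorins, 28 at plexins and neuropilins and 12 at netrin pathway genes. The plot of peaks by gene shows that a few genes made up most of each class.

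**Figure D1:**
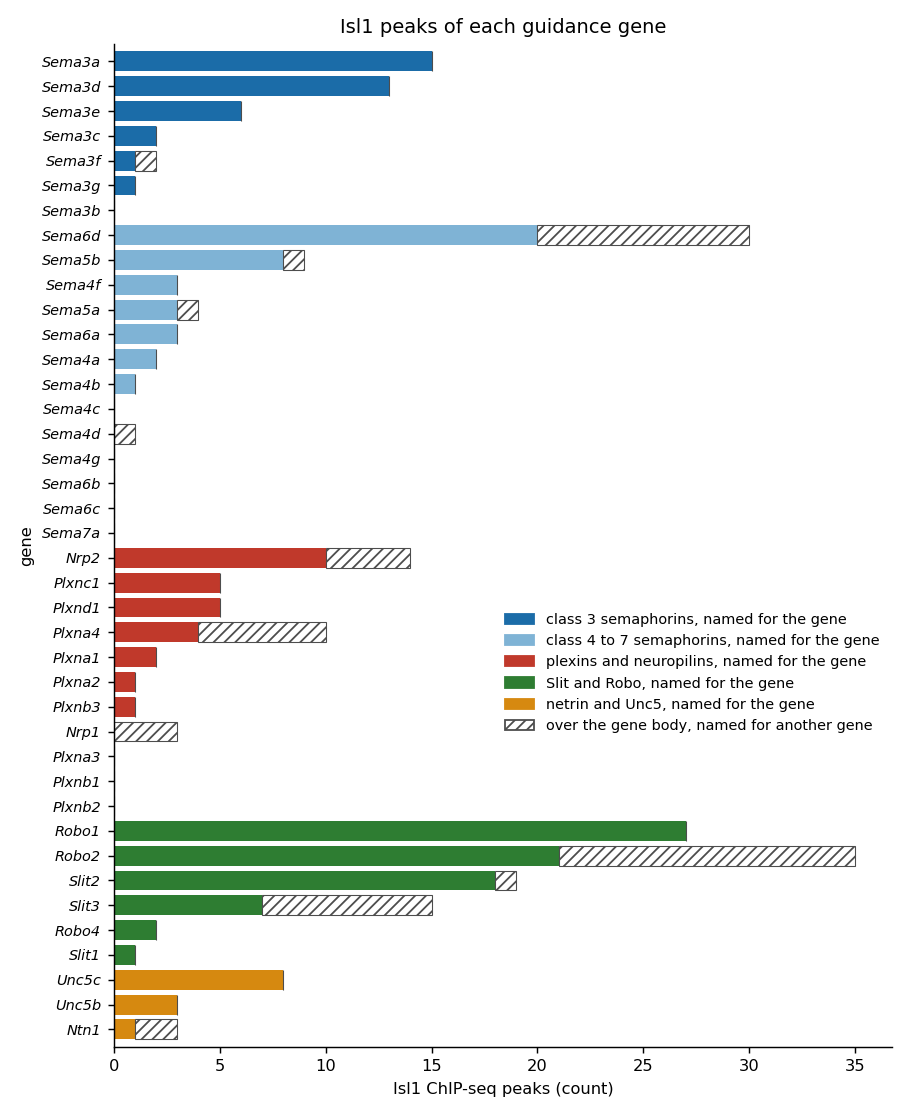
Number of Isl1 peaks of each of the 40 guidance genes, ordered by class. Filled bars count peaks that the list names for the gene and hatched bars further peaks that overlap its annotated body but are named for another gene. Robo1 has 27 filled counts, and Robo2 reaches 35 in all.

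Among class 3 semaphorins, the secreted ligands, Sema3a and Sema3d stood above the rest with 15 and 13 peaks. Sema3a, a repellent of axons and neural crest cells, was measured from 2 start sites in the list, 1 for 14 peaks and another for the remaining peak. By these starts 13 of its peaks lay upstream, between 30.4 and 502.8 kb away. The annotated Sema3a gene begins further upstream than both, and 9 of the 15 peaks lay within it. Its closest peak lay 365 bp downstream. Sema3d, a ligand with a role in pulmonary vein patterning, had no peak closer than 98.2 kb and 10 of 13 peaks lay downstream. Sema3e, the ligand of Plxnd1, had 6 peaks from 5.17 to 177.7 kb, 3 on either side. Sema3c, a ligand required for outflow tract septation, had 2 peaks, 25.6 and 32.9 kb into the gene. Sema3f and Sema3g each had 1 peak, 3.43 kb and 741 bp downstream. For Sema3f, the start used in the list lay 4884 bp from the closest start annotated in GENCODE. Sema3b had none, and the peak closest to a Sema3b start was 77.9 kb away.

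Sema3d, Sema3a and Sema3e follow each other on chromosome 5. In the 536.7 kb between Sema3d and Sema3a all 11 peaks were named for these genes, 5 for Sema3d and 6 for Sema3a. GENCODE places the predicted protein-coding genes Gm10481 and Gm10108 in this gap, and 8 of the 11 peaks were closer to a coding start that belonged to neither semaphorin. Between Sema3a and Sema3e lay Speer3 and 10 peaks, of which 3 were named for Sema3e and none for Sema3a.

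Sema6d accounted for 20 of the 40 peaks of class 4 to 7 semaphorins. Sema6d is a transmembrane ligand of Plxna1 with a role in cardiac chamber growth. Its peaks spanned 1383 kb and were measured from 3 different start sites, with 15 upstream and a median distance of 163.7 kb. Sema5b, a semaphorin with thrombospondin repeats, followed with 8 peaks, all inside the gene, from 1.92 to 113.7 kb downstream. Those at 110.7 and 113.7 kb lay 6.51 and 3.51 kb from the closest start annotated for Sema5b. Sema5a, the closest relative of Sema5b, had 3 peaks within 27.9 kb of each other, 209.2 to 237.0 kb into a gene of 451.5 kb. From the closest start annotated for Sema5a, they lay 36.6 to 64.5 kb away. Sema4f had 3 peaks at 2.88, 14.1 and 16.5 kb downstream, and Sema6a 3 at distances of 34.8 to 123.7 kb. The Sema6a peaks lay 13.7 to 36.0 kb from the closest start annotated for that gene. Sema4a had 2 peaks, 1.48 and 3.93 kb upstream, and Sema4b 1 at 2.96 kb upstream. No peak was named for Sema4c, Sema4d, Sema4g, Sema6b, Sema6c or Sema7a. Apart from Sema4d with 92.5 kb, these 6 genes were between 9.71 and 22.8 kb long.

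Among receptors of semaphorins, Nrp2 had the most peaks, 10, of which 9 lay upstream at up to 450.8 kb and 1 at 7.99 kb inside the gene. Of those 9, 8 lay in introns of Pard3b, the neighbouring gene. Plxnd1, the endothelial receptor of Sema3e, had 5 peaks, 1 at the start site described above and 4 from 21.9 to 80.9 kb upstream, 3 of them in introns of Tmcc1. Plxnc1, a receptor of Sema7a, also had 5 peaks, 27.7 to 72.3 kb away. Plxna4 had 4 peaks and Plxna1 2, the second of them 83.7 kb upstream in an intron of Chchd6. Plxna2, a receptor on cardiac neural crest cells, had 1 peak 1.08 kb upstream, and Plxnb3 1 at 12.4 kb upstream. Of the plexins and neuropilins, 22 of 28 peaks (78.6%, interval 60.5 to 89.8%) lay upstream, against 47.5% in the whole list. Nrp2 alone held 9 of the 22, and the interval treats peaks of the same gene as independent. The share leaves out peaks inside Plxna4 (6), Nrp2 (4) and Nrp1 (3) that were named for other genes. Plxna3, Plxnb1, Plxnb2 and Nrp1 had no peak named for them.

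Robo1 had 27 peaks, the 73rd highest count among all genes compared, and Robo2 had 21, the 145th. Robo1 and Robo2 are Slit receptors with a known part in heart tube and caval vein development. They lie next to each other on chromosome 16 with their 3′ ends facing and no protein-coding gene in the 846.2 kb between. Of the 27 Robo1 peaks 6 lay upstream, 8 within the gene and 13 in the gap beyond its end, at up to 792.4 kb from the TSS. All 21 Robo2 peaks lay upstream, from 4.20 to 512.6 kb. Their median spacing was 18.2 kb, against 29.7 kb between Robo1 peaks and 34.0 kb between neighbouring peaks over all chromosomes. Robo4, the endothelial Robo, is a gene of 12.1 kb and had 2 peaks, 4.11 kb upstream and 439 bp downstream.

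Of the ligands of Robo receptors, Slit2 had 18 peaks, Slit3 7 and Slit1 1. Slit2 peaks lay mostly far upstream, 15 of them between 130.2 and 917.4 kb from the TSS, and the latter was the greatest distance of any peak of these genes. The other 3 lay 30.6 to 77.6 kb inside Slit2. Slit3 had 2 peaks about 50 kb upstream, at 49.7 and 53.4 kb, and 5 inside the gene at 20.7 to 236.4 kb. The Slit1 peak lay 20.4 kb inside its gene. By the distances in the list, no Slit peak was closer than 20.4 kb to its TSS.

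In the netrin pathway, Unc5c had 8 peaks, Unc5b 3 and Ntn1 1. Unc5c, a repulsive netrin receptor, had 6 peaks inside the gene, at 12.4 to 218.1 kb, and 2 upstream. Unc5b, the vascular netrin receptor, had its peaks 6.20, 28.1 and 30.4 kb upstream. The only peak named for Ntn1, which encodes netrin-1, lay 15.6 kb upstream of the start used in the list and 1.57 kb from the closest start annotated for the gene. With distances taken to the closest annotated start of the same gene, 17 of the 40 genes, Ntn1 among them, had a peak within 10 kb, in place of 16.

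Known ligand and receptor pairs held the following counts. Sema3e and Plxnd1 had 6 and 5 peaks, with the closest at 5.17 kb and 106 bp. Sema3c had 2 peaks while its receptors had 10 (Nrp2), 5 (Plxnd1), 1 (Plxna2) and 0 (Nrp1). Slit2, Slit3, Robo1 and Robo2 had 18, 7, 27 and 21. For Ntn1 and Unc5b the counts were 1 and 3. By the closest GENCODE coding start, several of these counts differ and are given with the density of peaks.

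The position of each peak was plotted gene by gene, and few peaks lay near the start site. Peaks lay at a median distance of 147.6 kb from the TSS (interval of the median 104.1 to 193.7 kb), against 58.8 kb over all peaks. Within 1 kb of the TSS lay 2.58% of the peaks, the same share as in the whole list and against 2.90% of the peaks named for protein-coding genes, and these 5 peaks belonged to Sema3a, Sema3g, Plxna1, Plxnd1 and Robo4. Within 10 kb lay 19 peaks (9.79%, whole list 15.9%) and within 100 kb 77 (39.7%, whole list 62.5%). Upstream of the TSS lay 111 of 194 peaks (57.2%, interval 50.2 to 64.0%), against 47.5%. Robo2 and Slit2 held 21 and 15 of the 111, and the interval treats peaks of the same gene as independent. The share also leaves out 52 peaks that lay inside the 40 genes but were named for other genes. The median distance was shortest for netrin pathway genes, 42.4 kb, followed by plexins and neuropilins with 70.5 kb, and longest for Slit and Robo genes with 311.8 kb. Of all 194 midpoints, 112 (57.7%) fell between protein-coding genes, 80 in introns and 2 in exons, those of Plxna1 and Plxnd1. The midpoint lay in the gene it was named for at 70 peaks (36.1%, interval 29.7 to 43.1%), against 23.3% over all peaks and 29.7% over those named for protein-coding genes.

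**Figure D2:**
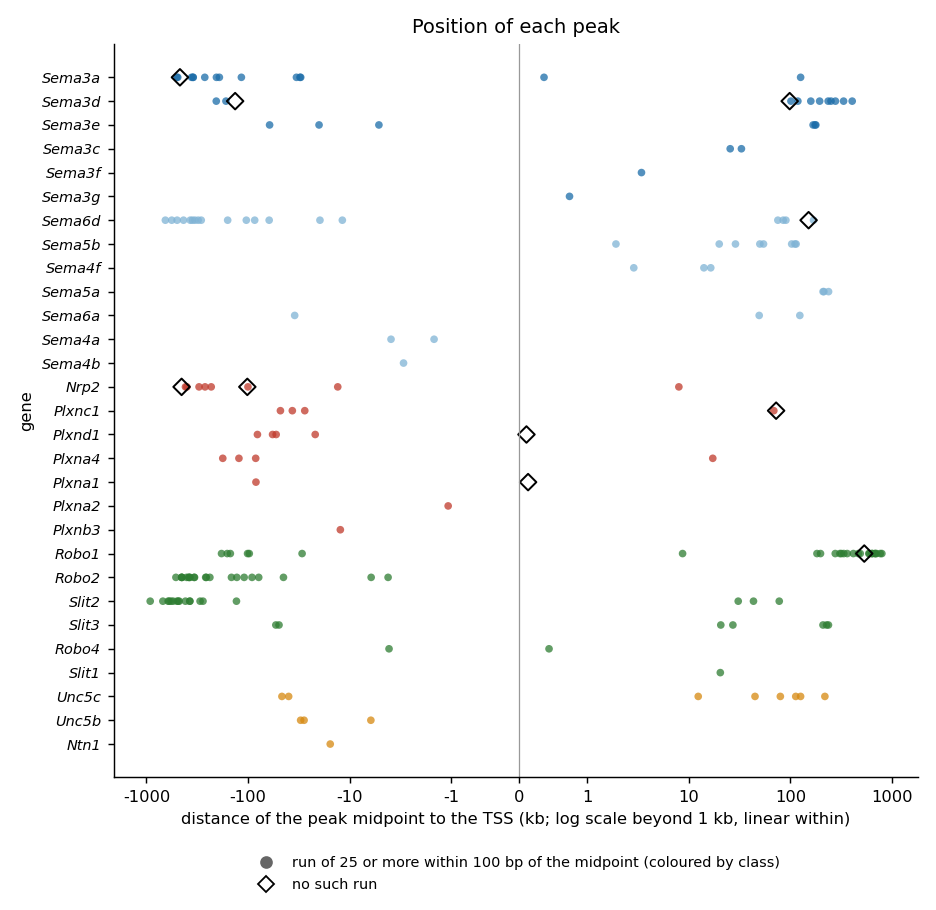
Distance of each of the 194 peak midpoints to the TSS in kb, for the 29 genes with a peak, on a log scale beyond 1 kb and a linear scale within; negative values are upstream. Circles, coloured by class, are peaks with a purine or pyrimidine run of 25 bases or more no further than 100 bp from the midpoint, and diamonds the 10 peaks without one, which include those at Plxna1 and Plxnd1 close to 0.

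The number of peaks went with the length of the gene. The 40 genes had a median length of 104.0 kb, against 17.6 kb for all protein-coding genes compared, and Spearman's correlation of peak number with gene length was 0.74 over the 40 genes and 0.39 over all 20290. Genes share neighbours and start sites, so these values are descriptions. Of the 20 genes of at least 100 kb, 19 had a peak and together they held 173 of the 194 peaks (89.2%). Nrp1 was the exception. Among genes under 50 kb, 9 of 18 (50.0%) had a peak, against 44.4% of all genes in that range. Within each length range the interval of the share of genes with a peak included that of all genes of like length. The values were 3 of 9 against 39.6% under 20 kb and 8 of 9 against 84.2% from 100 to 200 kb. With only 2 to 9 of the 40 genes in each range, these intervals were wide. Every gene of 200 kb or more had a peak, 11 in all. From the shortest range to the longest, the median number of peaks was 0, 1, 1.5, 2, 13 and 11. Over all genes it was 0, 1, 1, 2, 5 and 10. The 13 against 5 were those of the range from 200 to 400 kb, which held 5 of the 40 genes. The number of peaks within 10 kb of the TSS had a Spearman's correlation with gene length of -0.0067 over the 40 genes and 0.14 over all genes. Over the 29 genes selected for a peak at any distance it was -0.42. No value for all genes selected in this way was computed. Of the 18 genes under 50 kb, 8 (44.4%) had one this close, against 23.0% of all genes in that range. Of the 22 genes of at least 50 kb, 8 (36.4%) had one, against 35.9% of all genes of that length. No interval was computed for these shares.

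**Figure D3:**
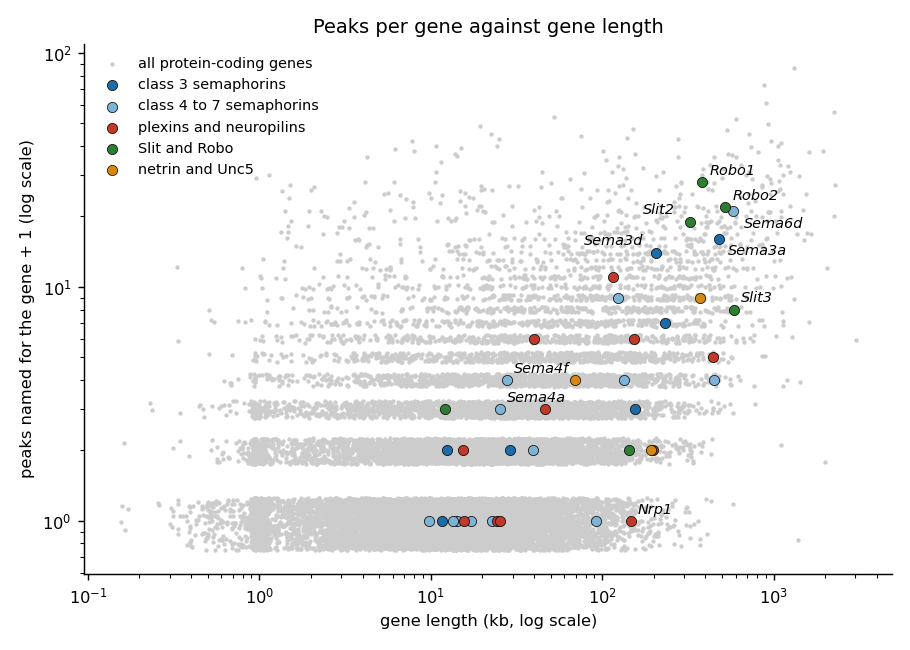
Number of peaks named for a gene plus 1 against gene length in kb, both on log scales, for 20290 protein-coding genes (grey, spread vertically by a small random amount) and the 40 guidance genes (coloured by class). The guidance genes run from short genes without a peak to Robo1 with 27, inside the grey cloud.

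**Figure D4:**
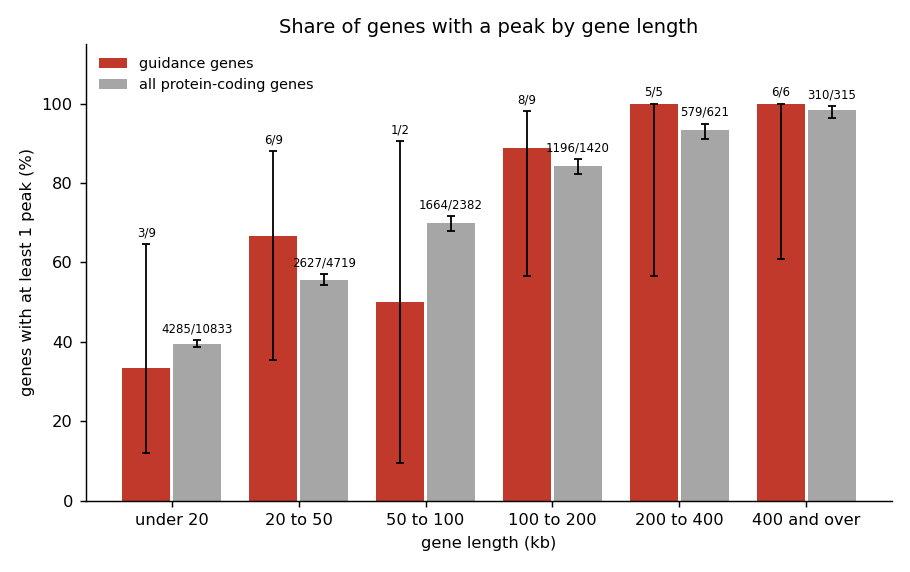
Share of genes with at least 1 peak in 6 ranges of gene length, for the 40 guidance genes (red) and all protein-coding genes (grey). Bars start at 0, error bars are 95% Wilson intervals and the fractions give genes with a peak over genes in the range; in each range the interval of the guidance genes includes the height of the grey bar.

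Long genes also have more sequence for which they are the closest gene. When each base of the genome was given to the closest protein-coding TSS of the GENCODE annotation, the 40 genes had 13.7 Mb, of which Robo1 alone had 2014 kb. By this assignment, in which only coding genes count, they held 276 peaks, or 20.1 per Mb (Poisson interval 17.8 to 22.6), against 18.8 per Mb over all genes. Between the 2 ways of naming, the count of 12 of the 40 genes moved by more than 1.5 times. It rose for 10 of them, from 27 to 44 at Robo1, 21 to 38 at Robo2, 10 to 18 at Nrp2, 3 to 14 at Sema6a, 3 to 8 at Sema4f, 3 to 7 at Sema5a, 1 to 8 at Plxna2 and 1 to 3 at Ntn1, and Nrp1 and Sema7a, without a peak by name, had 3 and 1. It fell from 15 to 9 at Sema3a and from 5 to 2 at Plxnd1. The classes ranged from 16.7 per Mb for plexins and neuropilins to 22.9 per Mb for class 4 to 7 semaphorins, with overlapping intervals (12.3 to 22.3 and 17.9 to 28.9). Robo1 had 21.8 per Mb and Slit2 15.1, on either side of the value over all genes. Among genes with at least 5 peaks by this assignment, Sema4f with 92.8 per Mb and Sema5b with 55.2 per Mb were the most densely covered. Runs of at least 50 bases numbered 884 in the sequence closest to the 40 genes, and 323 of them (36.5%, interval 33.4 to 39.8%) lay under a peak. Over all genes 30.1% of such runs did. For plexins alone 29 of 109 runs lay under a peak (26.6%, interval 19.2 to 35.6%). Robo1 and Robo2 held 57 and 41 of the 323 runs. These intervals treat runs of the same gene, and runs under the same peak, as independent.

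Assignment to the closest TSS of any transcript hid many peaks inside these genes. In all, 122 peaks overlapped the annotated body of 1 of the 40 genes, but only 70 were named for it and 52 for another gene. By overlap with the body, 26 of the 40 genes (65.0%) had a peak, against 30.5% of all genes. These shares were not matched for gene length, which had a median of 104.0 kb over the 40 genes and 17.6 kb over all genes. Over the 40 genes, the number of peaks over the body had a Spearman's correlation of 0.81 with gene length. Of the 52 peaks, 28 were named for microRNAs, 20 for RIKEN genes or an antisense RNA and 4 for other neighbouring genes. By accession 44 of the names were noncoding transcripts and 8 coding ones, among the latter 1700012A03Rik with 4 peaks. All 14 peaks inside Robo2 were named for Mir691, whose gene lies within Robo2. Of 13 peaks inside Slit3, 8 were named for Mir218-2, and 1 of 4 inside Slit2 for Mir218-1. All 3 peaks inside Nrp1 were named for Mir1903 and both peaks inside Ntn1 for Mir6406, so that Nrp1 lacked a peak by name only. Inside Sema6d, 10 of 13 peaks were named for 4930517E11Rik or 4930583P06Rik, inside Plxna4 6 of 7 for 1700012A03Rik or Plxna4os1 and inside Nrp2 4 of 5 for 4930487H11Rik. Sema4d held 1 peak named for Secisbp2. Counting peaks named for a gene or lying over it, Robo2 had 35, Sema6d 30, Robo1 27, Slit2 19, and Sema3a and Slit3 15 each.

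Mir218-1 and Mir218-2 lie in introns of Slit2 and Slit3 and give rise to the same mature microRNA, which is known to act on Robo mRNAs. It is shown from RefSeq (GRCm38.p6) with its seed, bases 2 to 8, in capitals because 9 peaks in Slit genes carry its name.
mmu-miR-218-5p: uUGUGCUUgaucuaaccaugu

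The peaks of these genes were of ordinary width. Their median width was 467.5 bp (interval 432 to 485 bp, range 269 to 1355 bp), against 466 bp over all peaks, and the medians of the 5 classes lay between 431 and 509 bp. After a Sema5b peak of 1355 bp, 102.8 kb downstream of the TSS, the widest was the run-free Sema3d peak with 1082 bp. Uninterrupted runs of 25 bases or more of 1 class were found around the midpoint (100 bp to each side) at 184 of 194 peaks (94.8%, interval 90.8 to 97.2%), against 94.1% of all peaks. Windows of the same size 1 kb to either side of the midpoints held such a run in 3.35% of cases. Repeats of at least 4 GA or CT units were present in 61.3% of the peaks (interval 54.3 to 67.9%), against 56.1% of all peaks. TAAT or ATTA, read on both strands, was present in 32.5% of the 200-bp windows at the midpoints, against 35.3% over all peaks, and in 81.4% of the windows 1 kb away. The median longest run in a peak was 110.5 bases and wider peaks tended to hold longer runs (Spearman's correlation 0.41 over 194 peaks, 0.37 over all peaks), as the plot of width against run length shows.

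**Figure D5:**
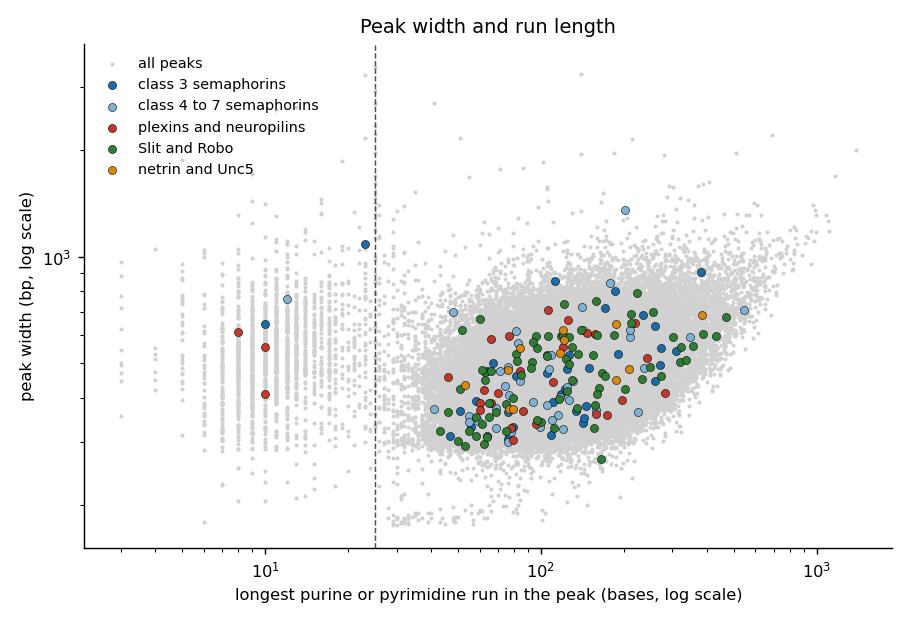
Peak width in bp against the longest purine or pyrimidine run in the peak in bases, both on log scales, for all 48295 peaks (grey) and the 194 peaks of the guidance genes (coloured by class). The dashed line marks 25 bases; 6 coloured points lie to its left and the widest coloured point is the Sema5b peak of 1355 bp.

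Of the 10 peaks without a run near the midpoint, 5 belonged to plexins and neuropilins, 3 to class 3 semaphorins and 1 each to Sema6d and Robo1. They were at Plxna1, Plxnd1, Plxnc1 (72.3 kb downstream), Nrp2 (101.8 and 450.8 kb upstream), Sema3a (467.9 kb upstream), Sema3d (98.2 kb downstream and 134.1 kb upstream), Sema6d (150.8 kb downstream) and Robo1 (531.8 kb downstream). In 4 of them a run of 46 to 127 bases lay elsewhere in the peak. The share of peaks with a run was 82.1% for plexins and neuropilins and between 92.1 and 100% for the other classes. Where a run lay in an intron of the gene the peak was named for, the purines were on the strand of the gene at 39 of 66 peaks (59.1%, interval 47.0 to 70.1%). Over all peaks of this kind the share was 40.2%. Sema3a, Sema5b and Robo1 gave 9, 8 and 8 of the 66 peaks, and the interval treats peaks of the same gene as independent. Peaks inside the 40 genes that were named for another gene, all 14 inside Robo2 among them, were left out.

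Other guidance genes were counted in the same way. Of 66 ephrins, Eph receptors and other guidance genes in a list drawn up for comparison, 65 were found in the annotation. A peak was present at 44 of them (67.7%, interval 55.6 to 77.8%), against 52.5% of all genes, with 395 peaks in all. Their median length was 50.1 kb, against 17.6 kb over all genes. Within 10 kb of the TSS 17 of the 65 (26.2%) had a peak, against 26.0% of all genes. By the closest annotated TSS the 65 genes had 18.5 peaks per Mb (interval 16.8 to 20.2). The highest counts were those of Epha7 and Unc5d with 36 peaks each, Efna5 with 35, Dcc with 32 and Epha6 with 28. Of these 5 genes, none had a peak closer than 10 kb. Unc5d and Dcc are netrin receptors like Unc5b and Unc5c, which had 3 and 8 peaks. Unc5d and Dcc are 572.6 and 1092 kb long, against 69.0 kb for Unc5b and 369.4 kb for Unc5c. By the closest GENCODE coding start, Unc5d and Dcc had 27.7 and 21.3 peaks per Mb, and Unc5b and Unc5c 32.4 and 22.2.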

How the data were processed

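Deposited were 1 Isl1 ChIP-Seq sample of pooled cardiogenic tissue and 1 input. According to the submitters' processing notes and the methods, the authors used Bowtie2, Picard 1.136, MACS and deepTools with the mm9 genome, removed duplicates and blacklisted regions and named the gene whose start was closest. The deposited peak list holds start, end, signed distance to the TSS, transcript and symbol for each of 48295 peaks, without any score; 1 repeated header line was skipped. The number of reads is not given in the sources used here, and whether replicate peak sets had been intersected was unclear. The members and the gene lists were chosen with earlier results of these data known.

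Peaks were matched to the 40 genes by symbol, and all 40 were in the annotation. For comparison, 20290 GENCODE protein-coding genes with a RefSeq record served, to which list symbols were matched by transcript, symbol or synonym (10673 of 12972 symbols, the others being mainly noncoding). Gene length, place and sequence were taken from the GENCODE vM1 annotation and the NCBIM37 genome, which is mm9. Distances were those of the list and run from the midpoint of the peak. Purines or pyrimidines counted as a run where 25 or more stood in a row, no further than 100 bp from the midpoint. Peaks were also counted over gene bodies (at least 1 bp of overlap), by the closest GENCODE TSS, and within 10 and 100 kb. All 40 genes were described, most fully the 8 with the highest counts, those with a peak within 10 kb, those with a run-free peak and known ligand and receptor pairs; of other guidance genes the 5 with most peaks were named. Sequences were those of the closest peaks within 10 kb and of distal peaks without any run; exons were left out, and some sequences are not reported here. Wilson, exact Poisson and order-statistic intervals were computed at 95% with scipy 1.17.1 in Python 3.11.15, and sequences were read with pysam 0.24.0, and the functions were tested on simulated data.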

Additional observations from a re-analysis of the deposited data

How the results depend on the processing

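Of 59 results under other settings, 38 stayed within their error, or within 1.5 times for counts. The other 21 moved. With peaks within 10 kb, 16 genes and 19 peaks remained, the median distance was 2.96 kb and 89.5% of peaks held a run. The correlation with gene length was then -0.0067. Genes with a peak this close numbered 4 each for class 4 to 7 semaphorins and for plexins and neuropilins, 3 for Slit and Robo and 1 for netrin and Unc5. With 10 kb taken from the closest annotated start of the gene, a setting chosen after seeing the data, 17 genes had a peak. Within 100 kb there were 77 peaks with a median distance of 29.4 kb. Peaks wider than the median of the list numbered 97 with a median width of 592 bp. Over gene bodies there were 122 peaks with a median distance of 102.5 kb. Peaks without a run numbered 10 at 8 genes, with a median width of 599 bp and a correlation with gene length of 0.31. At least 5 peaks were present at 13 genes. For most of these values the setting itself selects by the quantity measured, and otherwise the cause was not tested. No paired analysis was possible because the list is deposited for 1 ChIP sample and holds no values by replicate. Without heights, p-values or reads, weak and strong peaks could not be told apart, and the input was not set against the runs here.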
